A study of Mus musculus with 32 samples.

Results

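Cisplatin reaches the cells of the kidney through transporters, leaves through others, and is made more toxic by enzymes of the brush border. The 9 genes described here cover these steps. Slc22a2 and Slc31a1 stand for uptake, Slc47a1, Atp7a and Atp7b for export, and Ggt1, Dpep1 and Anpep for the breakdown of cisplatin conjugates. Slc31a2, a relative of Slc31a1 on intracellular vesicles, is listed with the uptake genes. The 9 were picked by symbol from a table of 54532 genes, for their known roles and with earlier results of these data known. Each of the 9 was found once and passed the filter on low counts in every comparison. The table holds whole-kidney RNA-seq counts of 32 wild-type C57BL/6 mice, aged 6 to 8 weeks, with 4 mice in each of 8 groups. The groups were males and females at Day 0, and males and females at Day 2, Day 3 and Day 5 after a single intraperitoneal injection of 20 mg/kg cisplatin, a dose that causes acute kidney injury (AKI). The study describes Day 0 mice as healthy, whereas the labels give the Day 0 females cisplatin as their treatment and the Day 0 males none. Each library is labelled as 1 replicate and taken here as 1 mouse, no batch was labelled, and bulk tissue cannot tell fewer cells of a type from less RNA per cell.

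As background, Slc22a2 (OCT2) is the organic cation transporter that carries cisplatin from blood into proximal tubule cells, and Slc47a1 (MATE1) is the apical antiporter that passes organic cations on into urine. Slc31a1 (CTR1) is the high-affinity copper importer, which also takes up platinum, and Slc31a2 (CTR2) is its relative on intracellular vesicles. Atp7a and Atp7b are copper-pumping ATPases that sequester and export copper and platinum. Ggt1 (gamma-glutamyl transpeptidase), Dpep1 (dipeptidase 1) and Anpep (aminopeptidase N) stand on the brush border and cut glutathione conjugates down to cysteine conjugates, from which the toxic thiol is made.

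The total counts were between 16502107 and 35961325 per library. All 11 proximal tubule markers (such as Lrp2, Cubn and Slc34a1) were detected in every library. All 3 hepatocyte markers were detected too, so detection alone cannot check the tissue label. The proximal tubule markers summed to 933 to 1825 CPM in the male Day 5 mice 2 to 4, against 12260 to 15320 CPM in the Day 0 males. Mitochondrial genes took 78.9 to 79.8% of the counts in the male Day 5 mice 2 to 4 and 77.9% in the female Day 5 mouse 2, against 4.49 to 31.6% in the 27 libraries outside these and the library labelled male Day 5 mouse 1, which was at 42.5%. That library also held 4153 counts of Xist, beside 387 counts of Y-linked genes, where the other male libraries held at most 260 Xist counts, so it is written as the library labelled male, and whether it holds RNA of more than 1 mouse was not tested. The Day 0 females held 5 to 221 counts of Y-linked genes, and the females of later days none. Counts on protein-coding genes longer than 6000 bases made up 14.8 to 21.4% of non-mitochondrial counts in the male Day 0 mice 1 to 3 and 13.9 to 18.3% in the female Day 0 mice 1 to 3. They made up 23.3 and 25.7% in mouse 4 of those groups, and 21.6 to 27.9% at Day 2 and Day 3. Markers of other cells also moved with the day: the summed erythroid markers were at 365 to 2402 CPM (counts scaled to a common library size) at Day 0, 6.54 to 149 at Day 2, 0.811 to 72.7 at Day 3 and 13.0 to 4940 at Day 5, with none of the 3 at 0, and the hepatocyte markers reached 9167 CPM in the female Day 0 mouse 2. The 3 neutrophil markers summed to 8.17 to 193 CPM in the male Day 5 group and to 0.868 to 1.61 CPM in the male Day 0 group, where at most 1 of them was at 0. The part of these shifts in the results was not tested, except where a value without the library is given.

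Levels are CPM, with library totals scaled by TMM (trimmed mean of M values), and only levels divided by gene length (CPM per kb) are compared between genes. Averaged over all 32 libraries, Ggt1 had the highest level of the 9, at 247 CPM per kb. Slc47a1 followed at 84.1, Slc22a2 at 74.4, Dpep1 at 45.0, Anpep at 38.6 and Slc31a1 at 25.8 CPM per kb. Slc31a2 was at 9.53 CPM per kb, and the 2 ATPases were lowest, with Atp7a at 0.739 and Atp7b at 0.435. The export ATPases thus rest on few reads: Atp7b had at most 212 counts in any library.

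**Figure D1:**
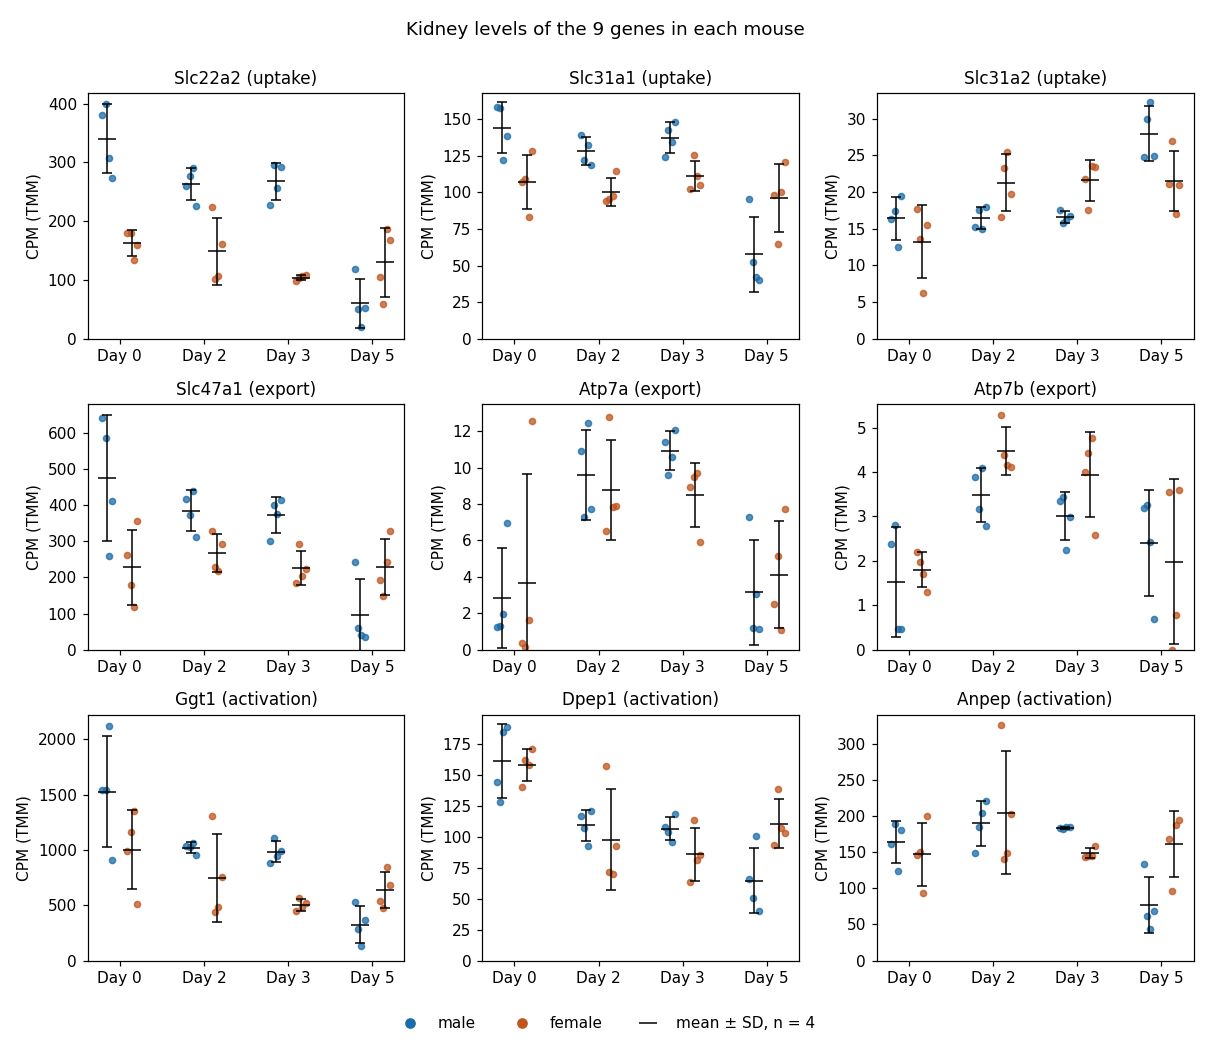
Level of each of the 9 genes in each mouse, as CPM with TMM scaling on a linear axis, by day. Blue points are males, orange points are females, and black bars give the mean ± SD of 4 mice. The uptake title of Slc31a2 is that of its list, and the gene acts on intracellular vesicles. Slc22a2, Slc47a1, Ggt1, Dpep1 and Slc31a1 are lowest in the males at Day 5, Slc31a2 is highest there, and at Day 0 Atp7a is low in 3 of 4 mice of each sex.

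The sequences upstream of 3 genes are shown, for the uptake gene with the clearest sex difference, the copper importer, and the copper exporter that differed most from Day 0. Bases are from the RefSeq promoter table (GRCm38.p6, plus strand, 5′ to 3′), ending before the RefSeq start or, for Slc22a2, before the start of the gene in the count table, whose coordinates are those of GRCm38. Slc22a2 is at chr17:12584132-12628488, Slc31a1 at chr4:62360727-62391769 and Atp7a at chrX:106027276-106124926, each protein-coding. Capitals mark the core of the metal response element, TGCACNC or TGCGCNC, on either strand.
Slc22a2, chr17:12583939-12584131: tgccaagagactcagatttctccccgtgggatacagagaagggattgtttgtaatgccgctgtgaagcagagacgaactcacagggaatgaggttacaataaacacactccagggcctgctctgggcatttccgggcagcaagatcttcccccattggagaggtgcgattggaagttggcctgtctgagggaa
Slc31a1, chr4:62360451-62360700: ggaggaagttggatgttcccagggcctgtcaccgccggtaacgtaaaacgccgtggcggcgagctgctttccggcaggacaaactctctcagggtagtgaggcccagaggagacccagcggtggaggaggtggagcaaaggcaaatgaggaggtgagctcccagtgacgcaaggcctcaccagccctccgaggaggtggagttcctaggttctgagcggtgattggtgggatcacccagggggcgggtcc
Atp7a, chrX:106026974-106027223: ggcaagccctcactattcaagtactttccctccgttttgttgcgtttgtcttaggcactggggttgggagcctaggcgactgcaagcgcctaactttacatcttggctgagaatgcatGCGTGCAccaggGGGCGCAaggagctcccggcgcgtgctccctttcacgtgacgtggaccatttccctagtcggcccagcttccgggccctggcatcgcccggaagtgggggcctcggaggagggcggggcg

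The Atp7a window held both forms of the core, TGCACNC at -132 and TGCGCNC at -120 from the RefSeq start. TGCACNC also occurred at -157 in Atp7b, at -238 in Slc31a2 and at -90 in Anpep. Of 32851 promoter windows of the full length searched (from 250 bases before the start to 50 after it), 12.6% held TGCACNC and 15.4% held TGCGCNC on either strand. The steroid receptor half-site AGAACA and the HNF1 half-site GTTAAT were found in 19 and 7.1% of all windows and in none of those of the 8 genes with an entry. These are matches of letters, not sites shown to be bound.

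Differences between groups were tested with edgeR's quasi-likelihood test over all genes that passed the filter, and called at a Benjamini-Hochberg adjusted p under 0.05. A differentially expressed gene (DEG) also had an absolute log2 fold change over 1.5. In males at Day 5, 6 of the 9 genes were called against Day 0, 5 lower and 1 higher, beside 19.2% of all genes tested (10.2% lower, 8.98% higher). The count was 1 without Day 5 mouse 2, 2 without Day 0 mouse 1 and 3 without Day 0 mouse 2 or Day 5 mouse 3 or 4. The share of all genes called in fits without 1 mouse is not given here. Such counts, here and below, are therefore not a result particular to the 9. Day 5 mice 2 to 4, with 78.9 to 79.8% mitochondrial counts, held 4340573, 3780528 and 4722649 non-mitochondrial counts. The Day 0 males held 13192763 to 28755793. Leaving out 1 mouse at a time cannot probe a state shared by these 3 mice, and the part of this depth in the result was not tested. The median log2 fold change of the 9 was -1.26, beside 0.04 for all genes. Slc22a2, Slc47a1 and Ggt1 were DEGs, beside 7.53% of all genes. In the same comparison 3 of 6 collecting duct markers were called higher, with sums of 955 to 1716 CPM at Day 5 against 485 to 900.1 CPM at Day 0, as were 2 of 5 endothelium and 1 of 4 fibroblast markers, and the part of these cells in the result was not tested. At Day 3, 2 of 9 were called in males, 1 lower and 1 higher, beside 24.5% of all genes (13.1% lower, 11.4% higher), and 2 in females, both lower, beside 5.54% (4.28% lower). The injured tubule markers summed to 29.16 to 373 CPM in females at Day 3 against 11.49 to 16.17 CPM at Day 0. In males these sums were 18.51 to 111.8 CPM against 11.45 to 14.9 CPM. The part of the injured tubule markers in the Day 3 calls was not tested. The male Day 3 count was 1 without Day 0 mouse 1 or 2 and 0 without any Day 3 mouse, and the female Day 3 count was 5 without Day 0 mouse 4, 1 without Day 3 mouse 2 and 0 without any other mouse. No gene of the 9 was called at Day 2 in males or females, or at Day 5 in females, where 3.16, 1.93 and 0.258% of all genes were. At an unadjusted p under 0.05 those 3 comparisons held 3, 2 and 1 of the 9, beside 29, 25.3 and 15.7% of all genes. The Wald test of DESeq2 called 2, 1 and 0 of the 9, beside 18.3, 12.9 and 4.5% of all genes, and limma voom with quality weights called 6, 6 and 3, beside 46.4, 50.0 and 18.9%. In edgeR 2 were called at Day 2 in males, and 2 in females, without Day 0 mouse 4 of that sex.

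**Figure D2:**
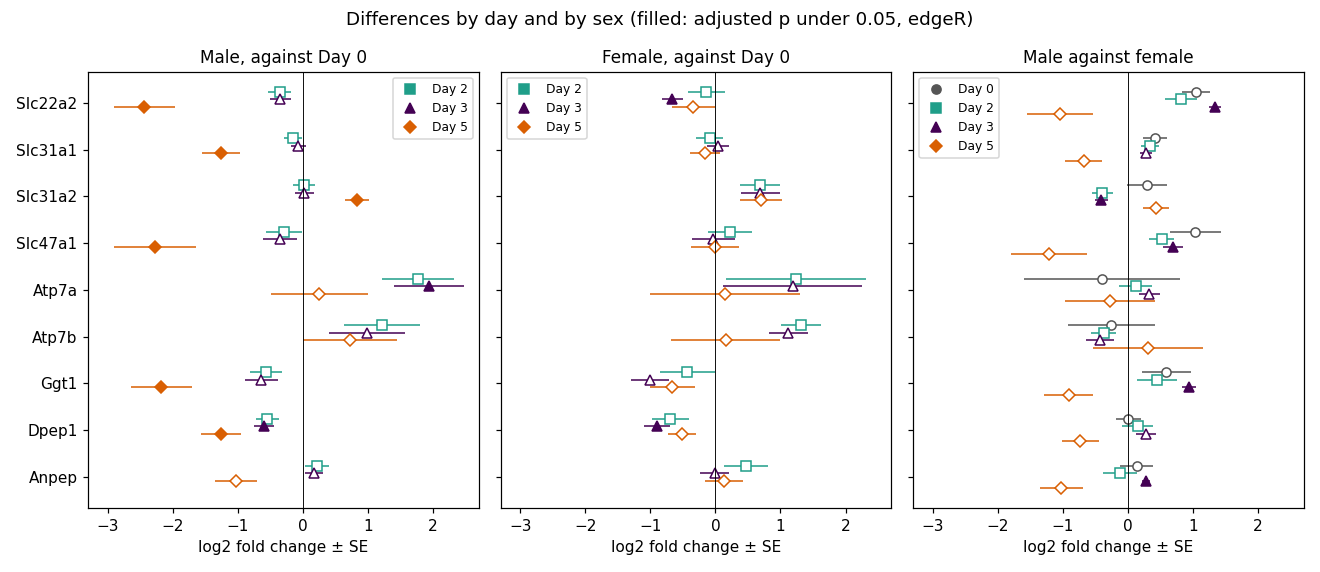
Log2 fold change ± SE (edgeR) of each gene against Day 0 in males and in females, and of males against females on each day, on 1 shared scale. Filled symbols have an adjusted p under 0.05. The males at Day 5 show 5 filled symbols below 0 and Slc31a2 above it, and males exceeded females for 4 genes at Day 3.

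Among the uptake genes, Slc22a2 fell most. In males its level was 380.3, 399, 308 and 274 CPM in the 4 mice at Day 0, and 119, 50.7, 19.5 and 52.9 CPM at Day 5. All 4 Day 5 mice were below all Day 0 mice, where 27.3% of all genes did not overlap in either direction, and the highest of them was the library labelled male Day 5 mouse 1. Slc22a2 fell by 2.44 on the log2 scale (SE 0.47, adjusted p = 0.0129, edgeR), to 0.185 of Day 0. It was still called without any 1 mouse, with adjusted p between 0.00112 and 0.0481.

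Before Day 5 the males kept most of this transcript, at 226.5 to 291 CPM at Day 2 and 228 to 295 CPM at Day 3. The log2 fold changes from Day 0 were -0.36 (SE 0.172, adjusted p = 0.203) and -0.35 (SE 0.160, adjusted p = 0.139), neither of which passed the test in edgeR. In females Slc22a2 was at 180.5, 179, 134 and 159 CPM at Day 0 and at 98, 104, 106 and 108 CPM at Day 3. The Day 3 females lay below every Day 0 female, where 19.3% of all genes did not overlap in either direction. The fall of 0.66 on the log2 scale was called (SE 0.155, adjusted p = 0.048, edgeR). That call was lost without any 1 mouse other than Day 0 mouse 4, with adjusted p between 0.0713 and 0.168, and with DESeq2 size factors (0.0515), no filter (0.0931) or 1 fit over all 8 groups (0.16). At Day 5 the females ranged from 58.4 to 187 CPM, with a log2 fold change of -0.34 (SE 0.328, adjusted p = 0.627).

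Slc31a1, the copper importer, kept near its Day 0 level in males until Day 5. Males were at 159, 158, 122 and 138 CPM at Day 0, 119 to 139.6 CPM at Day 2 and 124 to 148 CPM at Day 3, with log2 fold changes of -0.16 (SE 0.140) and -0.07 (SE 0.122). At Day 5 the males were at 95.5, 52.7, 41.9 and 40.4 CPM, all below Day 0, where 27.3% of all genes did not overlap in either direction. Slc31a1 fell by 1.26 on the log2 scale (SE 0.285, adjusted p = 0.0184, edgeR). The call was lost without Day 0 mouse 1 or 2, or without Day 5 mouse 2, 3 or 4, where adjusted p was 0.0545 to 0.0645. In females the log2 fold changes of Slc31a1 were -0.09, 0.04 and -0.16 at Day 2, Day 3 and Day 5, each within 1 SE of 0.

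Slc31a2, the vesicular relative of the copper importer, was the gene of the 9 that rose in males at Day 5. Males were at 16.3, 17.4, 12.6 and 19.4 CPM at Day 0 and at 24.8, 30.0, 32.2 and 24.9 CPM at Day 5. All Day 5 males exceeded all Day 0 males, where 27.3% of all genes did not overlap in either direction. Slc31a2 rose by 0.83 on the log2 scale (SE 0.189, adjusted p = 0.0185, edgeR). Without Day 0 mouse 1 or 2, or Day 5 mouse 2 or 3, adjusted p was 0.0563 to 0.0636. At Day 2 and Day 3 the male change was 0.02 on both days. In females Slc31a2 went from 6.22 to 17.7 CPM at Day 0 to 16.6 to 25.5 CPM at Day 2, 17.5 to 23.6 CPM at Day 3 and 17.0 to 27.0 CPM at Day 5. The female log2 fold changes were 0.68 (SE 0.309), 0.69 (SE 0.296) and 0.70 (SE 0.317), with adjusted p of 0.198, 0.153 and 0.321, so none passed the test between 2 groups. With 1 fit over all 8 groups all 3 passed (adjusted p = 0.0208, 0.0168 and 0.0351), and voom called Day 2 and Day 3 (0.00947 and 0.0184). In the female Day 0 group the lowest value, 6.22 CPM, was that of mouse 3.

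Of the export genes, Slc47a1 followed Slc22a2 in males. It did not in females at Day 3, where Slc22a2 fell by 0.66 and Slc47a1 was at -0.03 on the log2 scale. Males were at 641, 587, 260.5 and 412 CPM at Day 0, 311 to 439 CPM at Day 2 and 302 to 415 CPM at Day 3. At Day 5 they were at 243, 60.8, 40.5 and 34.7 CPM. The groups did not overlap, as for 27.3% of all genes. The library labelled male Day 5 mouse 1, at 243 CPM, still came close to the lowest Day 0 mouse. Slc47a1 fell by 2.27 on the log2 scale (SE 0.633, adjusted p = 0.0355, edgeR), a call lost with no filter on low counts (0.0813). Without that library it fell by 3.31 (adjusted p = 0.000836), whereas without Day 0 mouse 1 or 2, or Day 5 mouse 2, 3 or 4, adjusted p was 0.0845 to 0.105. Female levels lay between 117 and 356 CPM on all 4 days, with log2 fold changes of 0.22 (SE 0.341) at Day 2, -0.03 (SE 0.331) at Day 3 and -0.01 (SE 0.365) at Day 5.

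Atp7a, the copper ATPase mutated in Menkes disease, was higher after cisplatin in males. It was at 1.25, 1.30, 1.93 and 6.96 CPM in the Day 0 males, 10.9, 7.28, 12.5 and 7.73 CPM at Day 2 and 11.4, 9.61, 10.6 and 12.1 CPM at Day 3. Mouse 4 stood apart from the other Day 0 males, yet still lay below every male of Day 2 and Day 3, where 24.4 and 38.3% of all genes did not overlap Day 0. At Day 3 Atp7a rose by 1.94 on the log2 scale (SE 0.536, adjusted p = 0.0342, edgeR), and was the DEG of the 9 on that day, beside 3.72% of all genes. At Day 2 the change was 1.76 (SE 0.553, adjusted p = 0.0851). At Day 5 the males were at 7.27, 1.19, 3.06 and 1.12 CPM, with a change of 0.25 (SE 0.744).

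Mouse 4 also stood apart in the female Day 0 group, where Atp7a was at 0.389, 0.138, 1.62 and 12.6 CPM. The females were at 6.51 to 12.8 CPM at Day 2 and 5.90 to 9.69 CPM at Day 3, so that only mouse 4 of Day 0 overlapped them. Against all 4 Day 0 females the log2 fold changes were 1.24 (SE 1.081, adjusted p = 0.493) and 1.19 (SE 1.066, adjusted p = 0.457). Without that mouse they were 3.70 (adjusted p = 0.00502) and 3.64 (adjusted p = 0.00612). With all 4, voom gave 4.8 (0.000786) and 4.62 (0.0011). That fit gives less weight to libraries that depart from their group, so it is not independent of leaving out mouse 4. It called 50.0 and 47.8% of all genes on these days. In males, leaving out Day 0 mouse 4 gave 2.68 at Day 2 (adjusted p = 0.0109) and 2.85 at Day 3 (adjusted p = 0.00175), while leaving out Day 0 mouse 1 or 2 or any Day 3 mouse gave adjusted p of 0.0646 to 0.0862 at Day 3, and 1 fit over all 8 groups 0.0885.

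Atp7a is the longest of the 9, with 8734 bases of exon sequence in the table, and its level moved with the share of counts on long genes. The 11 libraries with under 5 CPM of Atp7a had 13.9 to 23.1% of their non-mitochondrial counts on genes over 6000 bases, and the 21 libraries above it had 21.6 to 27.9%. The Day 0 mouse 4 of each sex, with 23.3 and 25.7%, was among the latter. Atp7b, at 6505 bases, also counts as long, and lay at 2.39, 2.80, 0.474 and 0.460 CPM in the Day 0 males. In the 6 libraries with the lowest long-gene share Atp7b was at 0.474 to 2.21 CPM, but Day 0 mouse 4 of each sex, with the highest share of its group, had the lowest Atp7b of that group (0.460 and 1.30 CPM). The part of the long-gene share in these differences was not tested.

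**Figure D3:**
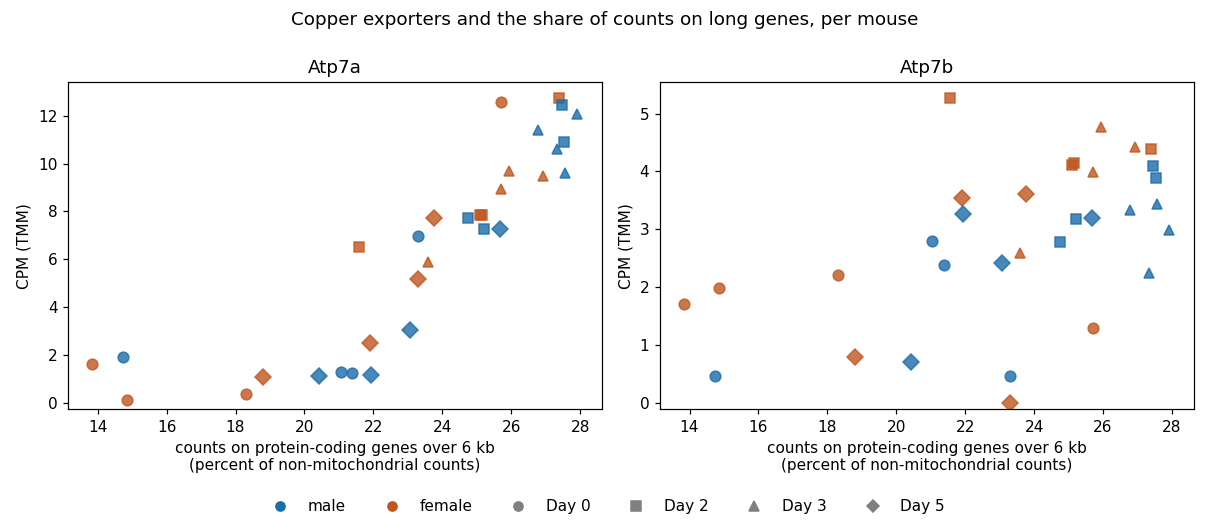
Level of Atp7a and Atp7b (CPM with TMM scaling) against the share of non-mitochondrial counts on protein-coding genes over 6 kb, 1 point per mouse. Colours give the sex and symbols the day. Atp7a is under 5 CPM in 11 libraries, all with a long-gene share of 23.1% or less, and Atp7b is at 2.21 CPM or less in the 6 libraries with the lowest share.

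Atp7b, the copper ATPase mutated in Wilson disease, was at 2.21, 1.98, 1.72 and 1.30 CPM in the Day 0 females. It was at 5.28, 4.39, 4.15 and 4.12 CPM at Day 2 and 3.99, 4.42, 4.77 and 2.59 CPM at Day 3. Both days lay above Day 0 in every mouse, where 15.3 and 19.3% of all genes did not overlap. The log2 fold changes were 1.31 (SE 0.308, adjusted p = 0.0526) and 1.12 (SE 0.303, adjusted p = 0.0553), just short of the threshold in edgeR. Without Day 0 mouse 4, both passed (adjusted p = 0.0154 and 0.0294). In males the changes were 1.21 (SE 0.582) at Day 2 and 0.98 (SE 0.582) at Day 3, with adjusted p of 0.200 and 0.235. At Day 5 no count of Atp7b was found in the female mouse 2, which allows up to 0.361 CPM at a floor of 3 counts per library (counting error only).

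Among the activating enzymes, Ggt1 was lowest in males at Day 5. It was at 1544, 1541, 2124 and 905 CPM in the Day 0 males, 953 to 1067 CPM at Day 2, 886 to 1109 CPM at Day 3 and 526.5, 283, 131 and 364 CPM at Day 5. All Day 5 males lay below all earlier males, and against Day 0 alone 27.3% of all genes did not overlap in either direction. Ggt1 fell by 2.18 on the log2 scale (SE 0.467, adjusted p = 0.016, edgeR), and this was lost only without Day 5 mouse 2 (adjusted p = 0.0597). In both sexes mouse 4 was the lowest of Day 0, at 515 CPM in females against 988 to 1352 CPM in the other 3. The female Day 3 group was at 447 to 564 CPM, a change of -1.01 (SE 0.293, adjusted p = 0.0637) against all Day 0 females and of -1.23 (adjusted p = 0.00188) without mouse 4. The male Day 3 change was -0.64 (SE 0.248, adjusted p = 0.0873), and -0.82 (adjusted p = 0.0126) without Day 0 mouse 4.

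Dpep1 was the gene of the 9 called lower in both sexes at Day 3. Males were at 144, 128, 184.5 and 188 CPM at Day 0, and at 108, 104, 95.8 and 118 CPM at Day 3. Females were at 140.4, 162, 158 and 171 CPM at Day 0, and at 63.2, 114, 80.9 and 85.0 CPM at Day 3. Neither sex overlapped its Day 0 group, as for 38.3% of all genes in males and 19.3% in females. Dpep1 fell by 0.60 in males (SE 0.159, adjusted p = 0.0299) and by 0.90 in females (SE 0.196, adjusted p = 0.0478, edgeR) on the log2 scale. The male call was lost without any 1 Day 3 mouse (adjusted p 0.0634 to 0.0995), with no filter (0.0517) or with 1 fit over all 8 groups (0.0754). The female call was lost without Day 0 mouse 1, 2 or 3 or Day 3 mouse 1, 3 or 4 (0.0725 to 0.168), or with DESeq2 size factors (0.0515).

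By Day 5 Dpep1 was at 65.7, 50.8, 101 and 40.4 CPM in males, a fall of 1.26 on the log2 scale (SE 0.302, adjusted p = 0.022, edgeR). Without Day 0 mouse 1 or Day 5 mouse 2 or 4, adjusted p was 0.0514 to 0.0747. The females at Day 5 were at 93.5 to 139 CPM, all below Day 0, where 8.6% of all genes did not overlap, with a change of -0.51 (SE 0.213, adjusted p = 0.288). Against Day 0, Dpep1 was also at -0.55 (SE 0.177) in males and -0.69 (SE 0.283) in females at Day 2, with adjusted p of 0.0886 and 0.160.

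Anpep was called in neither sex at Day 2 or Day 3. Males were at 161, 189, 125 and 181 CPM at Day 0 and at 182 to 186 CPM in all 4 mice at Day 3. At Day 5 they were at 133, 62.4, 43.5 and 68.1 CPM, and the library labelled male Day 5 mouse 1 overlapped Day 0. The change of -1.03 (SE 0.327, adjusted p = 0.0523, edgeR) did not pass, but it did with 1 fit over all 8 groups (0.00407), with at least 10 counts in every library (0.046), in DESeq2 (0.0133) and in voom (1.71e-05). It was -1.42 (adjusted p = 0.00339) without that library and -1.14 (adjusted p = 0.0432) without Day 0 mouse 3. The female changes were 0.47 (SE 0.332), -0.01 (SE 0.225) and 0.13 (SE 0.295) at Day 2, Day 3 and Day 5.

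The comparison between sexes asked whether male and female kidneys carry the transporters at different levels. At Day 3, 5 of the 9 genes were called, 4 higher in males (beside 10.6% of all genes) and 1 lower (beside 10.7%), out of 21.3% of all genes called in either direction. Without the male Day 3 mouse 3 the count was 3. None of the 9 was called at Day 0, Day 2 or Day 5, where 0.449, 1.47 and 0.276% of all genes were. On those days 2, 4 and 4 of the 9 had an unadjusted p under 0.05 in edgeR, beside 8.04, 15 and 20.3% of all genes. DESeq2 called 1, 1 and 0 of the 9, beside 2.71, 5.12 and 6.92%, and limma voom with quality weights called 3, 6 and 7, beside 25.2, 19.0 and 29.7%. In edgeR 1 was called at Day 2 without the female mouse 1, and 5 at Day 5 without the library labelled male Day 5 mouse 1. With 1 fit over all 8 groups, which calls 0.988% of all genes at Day 3, Slc22a2 alone of the 9 was called (adjusted p = 0.0433). That fit called 0, 0 and 4 of the 9 at Day 0, Day 2 and Day 5, beside 3.22, 0.763 and 9.69% of all genes, with Slc22a2 lower in males at Day 5 (-1.10, adjusted p = 0.0395). Of the 11 proximal tubule markers 4 were also higher in males at Day 3 and none was lower, while 5 of 6 collecting duct, 3 of 5 thick ascending limb and 2 of 5 injured tubule markers were lower and 4 of 5 endothelium markers higher in males. The adrenal cortex markers summed to 838 and 967 CPM in the female Day 3 mice 3 and 4. The part of these markers in the sex differences was not tested.

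Slc22a2 was higher in males at Day 3, with 228, 295, 256.5 and 291 CPM, against 98, 104, 106 and 108 CPM in females. The difference was 1.34 on the log2 scale (SE 0.095, adjusted p = 4.18e-05, edgeR), or 2.52-fold, and it was called without any 1 mouse. The sexes did not overlap at Day 0 either, where every male was at 274 CPM or more and every female at 180.5 CPM or less, as for 6.17% of all genes. There the difference was 1.05 (SE 0.213, adjusted p = 0.0895) in edgeR, and it was called by DESeq2 (1.05e-05) and by voom (0.000601). At Day 2 it was 0.82 (SE 0.246, adjusted p = 0.148), and 1.08 (adjusted p = 0.0186) without the female mouse 1, which had the highest female level, 225 CPM. At Day 5 the sign was the opposite, at -1.04 (SE 0.507, adjusted p = 0.276), and -1.54 (adjusted p = 0.0366) without the library labelled male Day 5 mouse 1.

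At Day 3 males also had more Ggt1 (0.94, SE 0.104, adjusted p = 0.000571), with 886 to 1109 CPM against 447 to 564 CPM. Slc47a1 was higher by 0.70 (SE 0.155, adjusted p = 0.0132), with 302 to 415 CPM against 183 to 294 CPM. Anpep was higher by 0.28 (SE 0.064, adjusted p = 0.0143), with 182 to 186 CPM against 144 to 159 CPM, and was at 0.0506 without the male mouse 3. These 3 genes and Slc22a2 had no overlap between the sexes, as for 25.7% of all genes. Slc31a2 was the gene lower in males (-0.41, SE 0.099, adjusted p = 0.0184), at 15.8 to 17.6 CPM against 17.5 to 23.6 CPM, and the call was lost without the female mouse 3 or the male mouse 2 or 3 (adjusted p 0.0589 to 0.0625). Slc31a1 was 0.28 higher in males (SE 0.089, adjusted p = 0.0526), and passed without the female mouse 2 (0.35, adjusted p = 0.00648) or the male mouse 1 (0.32, adjusted p = 0.0429).

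The difference between the male and female changes from Day 0 was tested as an interaction. None of the 9 was called at Day 2, Day 3 or Day 5 in edgeR fits of the 4 groups compared, where 0, 0.0114 and 0.243% of all genes were. At an unadjusted p under 0.05 there were 0, 0 and 6 of the 9, beside 4.23, 7.11 and 15.2% of all genes. DESeq2 called 0, 0 and 2 of the 9, beside 0.12, 0.466 and 4.05%, and limma voom with quality weights called 1, 1 and 5, beside 11.2, 12 and 32.5%. At Day 5 the male change of Slc22a2 was lower than the female change by 2.13 on the log2 scale (SE 0.592, unadjusted p = 0.0023, adjusted p = 0.114), and the value for Slc47a1 was -2.29 (SE 0.763, adjusted p = 0.174). Without the library labelled male Day 5 mouse 1, Slc22a2 was at -2.68 (adjusted p = 0.00585) and 4 of the 9 were called. The share of all genes called without that library is not given here. With 1 edgeR fit over all 8 groups, 0, 0 and 4 of the 9 were called at Day 2, Day 3 and Day 5, beside 0.022, 0.011 and 7.55% of all genes, with Slc22a2 at -2.16 (adjusted p = 0.00744) at Day 5. Whether the Day 5 changes differed between the sexes thus depended on the fit.

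The levels of the 9 genes were set beside the sum of the 11 proximal tubule markers. In males this sum was 12260 to 15320 CPM at Day 0, 8299 to 12280 CPM at Day 2 and 9981 to 13660 CPM at Day 3. At Day 5 it was 7444 CPM in the library labelled male Day 5 mouse 1 and 933 to 1825 CPM in the other 3 males. In females it was 10890 to 15400 CPM at Day 0, 5805 to 15000 CPM at Day 2, 5766 to 11660 CPM at Day 3, when Slc22a2 and Dpep1 were called lower, and 4214 to 11600 CPM at Day 5. The 3 lowest sums of all 32 libraries were thus those of the males in which Slc22a2 and Slc47a1 were lowest, and 3 of the 11 markers were called lower in males at Day 5, beside 10.2% of all genes, and none higher.

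Relative to that sum, Slc22a2 in males was at a median of 2.41% at Day 0 (2.23 to 2.76%), 2.41% at Day 2, 2.23% at Day 3 and 2.41% at Day 5 (1.60 to 5.67%). Its medians in females were 1.37, 1.51, 1.55 and 1.63% on these days. On Day 0, Day 2 and Day 3 every male was at 2.12% or more and every female at 1.85% or less. Slc47a1 was likewise at 3.71% in males at Day 0 and 3.52% at Day 5. By contrast the male median of Slc31a1 was 1.06% at Day 0 and 3.61% at Day 5, that of Dpep1 was 1.17 and 3.56%, and that of Slc31a2 was 0.113 and 2.15%. These ratios are descriptions, with no test.

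**Figure D4:**
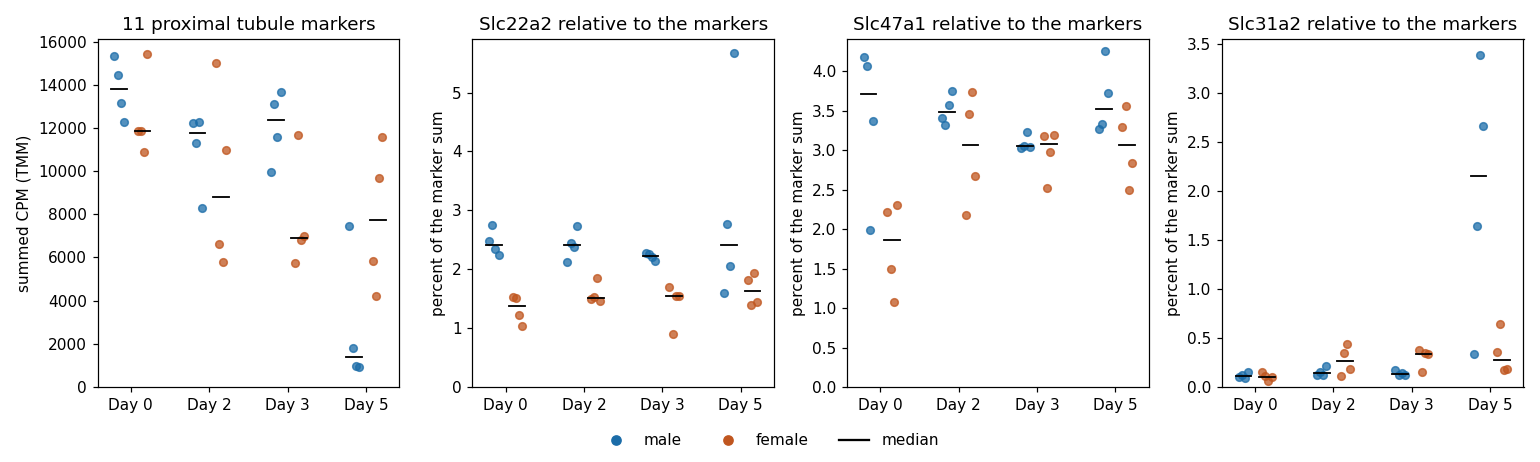
Summed level of 11 proximal tubule markers (CPM with TMM scaling), and Slc22a2, Slc47a1 and Slc31a2 as a percent of that sum, in each mouse by day. Blue points are males, orange points are females, and bars are medians. The marker sum is lowest in the males at Day 5, the male median of Slc22a2 stays between 2.23 and 2.41% of it, and Slc31a2 is highest at Day 5 in males.

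The balance of uptake and export was followed in each mouse as a ratio of counts per kb. Slc22a2 over Slc47a1 had a median of 0.916 in males at Day 0, 0.948 at Day 2, 0.981 at Day 3 and 0.90 at Day 5, and the medians in females were 1.15, 0.712, 0.685 and 0.723. At Day 3 the 4 males were at 1.026, 1.005, 0.932 and 0.957, and the 4 females at 0.728, 0.483, 0.711 and 0.660. The difference at Day 3 was 0.62 on the log2 scale, with the smallest p that an exact two-sided permutation test of 4 against 4 can give (p = 0.0286, Benjamini-Hochberg adjusted p = 0.286 over 10 comparisons). This was the comparison of the 10 with an unadjusted p under 0.05, and none passed the adjustment. Against Day 0, the male differences were -0.13, -0.06 and -0.02 at Day 2, Day 3 and Day 5 (exact permutation p = 0.857, 1.0 and 0.971), with signs that turned to 0.09, 0.16 and 0.20 without Day 0 mouse 3.

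Slc31a1 over the sum of Atp7a and Atp7b was higher in every Day 0 mouse than in the mice of its sex at Day 2, but not at every later day. In males the ratio was 72.7, 63.6, 97.0 and 37.2 at Day 0, 17.7, 21.6, 15.1 and 21.2 at Day 2 and 15.98, 20.5, 20.1 and 18.8 at Day 3. All males of both days lay below all Day 0 males, with differences of -1.78 and -1.77 on the log2 scale (exact permutation p = 0.0286 each, adjusted p = 0.0952). In females the ratio was 65.1, 79.6, 43.4 and 18.3 at Day 0 and 14.2, 10.4, 14.9 and 17.5 at Day 2, a difference of -1.69 (exact permutation p = 0.0286, adjusted p = 0.0952). Male Day 5 (-1.64) and female Day 3 (-1.43) overlapped Day 0 (exact permutation p = 0.0571 each), and female Day 5 differed by -0.41 (exact permutation p = 0.543), with 1 mouse at 94.96, above every Day 0 female. Of 10 comparisons 3 reached an unadjusted p of 0.0286 and none passed the adjustment. The lowest Day 0 ratio of each sex was that of mouse 4, whose long-gene share was the highest of its group.

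**Figure D5:**
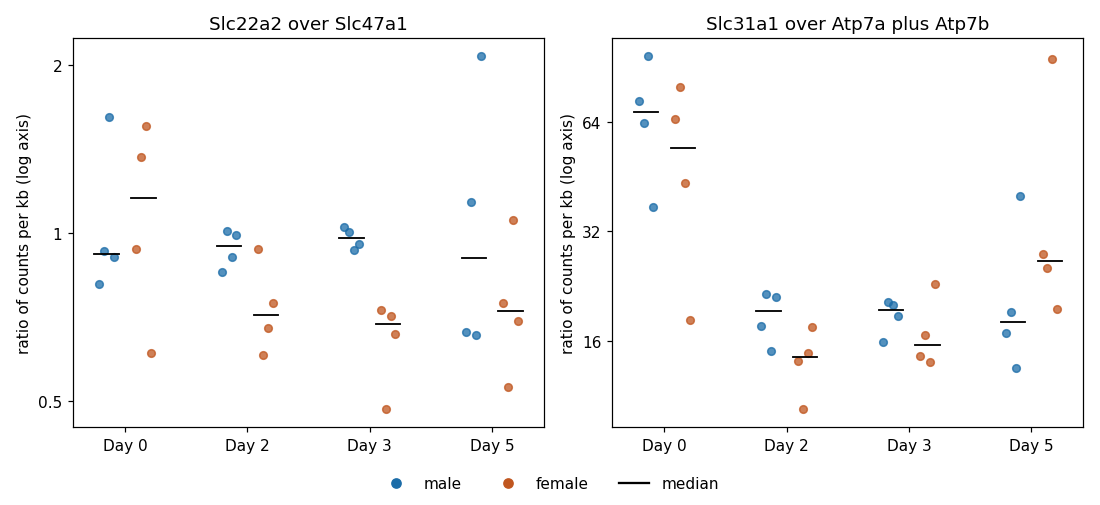
Ratio of counts per kb of Slc22a2 to Slc47a1 (left) and of Slc31a1 to the sum of Atp7a and Atp7b (right) in each mouse by day, on a log axis. Blue points are males, orange points are females, and bars are medians. The left ratio is higher in every male than in every female at Day 3, and the right ratio has medians of 68.2 in males and 54.3 in females at Day 0 against 19.4 and 14.5 at Day 2.

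Related genes were counted from 5 lists of 51 genes in all, and those given without a value below were named after their values were seen. Among the other organic cation transporters, Slc22a4, a carnitine and ergothioneine transporter, fell in males at Day 5 (-1.49, SE 0.288, adjusted p = 0.013) and was not called in the other comparisons. Slc47a2 passed the filter in the interactions of Day 2 and Day 3 and in no comparison between groups. Of the 5 subunits of the volume-regulated anion channel, which can pass platinum drugs, 1 fell in males at Day 3, beside 13.1% of all genes lower, namely Lrrc8a, the obligatory subunit (-1.17, SE 0.287, adjusted p = 0.025), and 2 at Day 5, beside 10.2% lower, Lrrc8a (-1.01, SE 0.306, adjusted p = 0.0452) and Lrrc8b (-1.46, SE 0.433, adjusted p = 0.0431).

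Among 17 genes of copper handling, 16 were tested. In males 2 rose (Cox17 and Cp) and 4 fell (Atox1, Commd1, Steap3 and Sod1) at Day 3, and 2 rose (Cp and Mt1) and 3 fell (Ccs, Sco1 and Sod1) at Day 5, where 24.5 and 19.2% of all genes were called on these days. In females Commd1 fell at Day 2, and at Day 3 Cp rose and Commd1 fell, where 1.93 and 5.54% of all genes were called. Cp, the copper-carrying ferroxidase ceruloplasmin, rose in males at Day 5 (1.79, SE 0.365, adjusted p = 0.014), in males at Day 3 (1.12, adjusted p = 0.0171) and in females at Day 3 (1.45, adjusted p = 0.049). Mt1, a metallothionein that binds copper, zinc and platinum, rose in males at Day 5 (1.59, SE 0.387, adjusted p = 0.0229), from 94.3 to 218 CPM at Day 0 to 274 to 598 CPM. The metalloreductases Steap3 (-1.59, SE 0.199, adjusted p = 0.00136) and Steap2 (-0.58, SE 0.097, adjusted p = 0.00408) were lower in males than in females at Day 3, and Steap3 at Day 2 as well (-1.27, adjusted p = 0.0106). Cp was the third copper gene lower in males at Day 3 (-1.02, adjusted p = 0.0246), out of 16 tested and beside 10.7% of all genes lower, and none was higher, beside 10.6%.

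The 11 genes of glutathione synthesis and conjugation were all tested. In males Abcc2 rose and Gsta4 and Gstp1 fell at Day 3, 3 of 11 beside 24.5% of all genes, a share near the background. At Day 5 in males, beside 8.98% of all genes higher and 10.2% lower, 3 rose (Gsta4, Abcc4 and Mgst1) and 3 fell, namely Gclm, Gss and Gsr, which act in the synthesis and recycling of glutathione. In females Gclc, the catalytic subunit of the enzyme that limits glutathione synthesis, rose at Day 2 and at Day 3. In these comparisons 1.93 and 5.54% of all genes were called. Gsta4, a glutathione transferase for lipid aldehydes, was lower in males at Day 0 (-2.33, SE 0.360, adjusted p = 0.033), Day 2 (-2.10, adjusted p = 0.0225) and Day 3 (-2.52, SE 0.118, adjusted p = 3.72e-06). The Day 3 males were at 15.6 to 20.7 CPM and the females at 86.2 to 119 CPM. In males Gsta4 fell at Day 3 (-0.89, adjusted p = 0.0226) and rose at Day 5 (1.53, SE 0.269, adjusted p = 0.0102). Of the conjugate pumps, Abcc4 was lower in males at Day 3 (-0.85, SE 0.114, adjusted p = 0.00148) and Abcc2 higher (0.56, SE 0.116, adjusted p = 0.00948), and the transferase Gstt1 was lower (-0.53, SE 0.095, adjusted p = 0.00545). Gss was also higher and Gclc lower in males on that day, when 10.6% of all genes were called higher and 10.7% lower.

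Of 12 genes that act with or after Ggt1 on glutathione conjugates, 9 were tested in males at Day 5 and 4 fell, beside 10.2% of all genes, with a median of -1.21 beside 0.04 for all genes. They were Acy3, an aminoacylase that removes the acetyl group from mercapturates, Nat8 (-3.60, SE 0.650, adjusted p = 0.0109), which acetylates cysteine conjugates to mercapturates, the leucine aminopeptidase Lap3 (-2.02, SE 0.432, adjusted p = 0.016) and Kyat1 (-1.52, SE 0.305, adjusted p = 0.0137), a cysteine conjugate beta-lyase that can release the thiol. In males Acy3 and Got2 fell at Day 3, out of 10 tested and beside 13.1% of all genes. None of the list was called in females at Day 2, Day 3 or Day 5, beside 1.93, 5.54 and 0.258% of all genes. Lap3, Kyat1 and Acy3 were higher in males than in females at Day 2, beside 1.47% of all genes called, and at Day 3 these 3 and Nat8 were higher and 1 of the 10 tested was lower, beside 10.6 and 10.7%. At Day 3 Nat8 was higher in males by 2.00 (SE 0.204, adjusted p = 0.000581), Lap3 by 1.0 (SE 0.081, adjusted p = 0.00011) and Kyat1 by 1.01 (SE 0.163, adjusted p = 0.00362). Kyat3, another such lyase, was lower in males (-0.67, SE 0.102, adjusted p = 0.0025). Dpep2 and Dpep3 were not tested in any comparison.

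The profile of each of the 9 genes over the 32 libraries was matched against 15045 protein-coding genes, by the root mean square difference of mean-centred log2 CPM. Slc22a2 was nearest to Pecr (0.235), Fbxo40 (0.296) and Them7 (0.312), and Slc47a1 to Keg1 (0.232), Sord (0.262) and Slc36a1 (0.264). Slc31a1 was nearest to Ppp1r21 (0.143), Sfxn1 (0.159) and Lamp1 (0.164), and Slc31a2 to Sbds (0.214), Morf4l2 (0.223) and Rgmb (0.224). Ggt1 was nearest to Aifm3 (0.239), Glb1 (0.247) and Proc (0.258), Anpep to Slc9a3r1 (0.198), Myo7a (0.217) and AU040320 (0.221), and Dpep1 to Arhgap10 (0.300), Ctnnbip1 (0.304) and Dennd1a (0.307). The differences were larger for the ATPases, with 0.669 for Atp7a and Exph5 and 0.826 for Atp7b and Tmc7 as the smallest, but their own SD over the libraries was larger too (1.55 and 1.26, against 0.434 to 0.97 for the other 7 genes). Within the 9, the closest pairs were Slc31a1 with Anpep (0.333), Slc22a2 with Ggt1 (0.388) and Slc22a2 with Slc47a1 (0.458).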

How the data were processed

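Kidney RNA of 32 mice was sequenced by the authors as paired-end 150 bp reads. The authors deposited raw counts per gene and FPKM values of the same libraries. Counts gave all results, and the FPKM an alternative for the ratios of genes. The study's methods give GRCm38 and DESeq2, while the submitters' processing notes name HTSeq, DESeq2 and GRCm39. The coordinates of the 9 genes in the table equal those of GRCm38, which is used here. The aligner and the strandedness are not given in the sources used here, and no exon of the 9 genes overlaps an exon of another gene on either strand. The deposited table also holds gene lengths, which the authors give in bases and which served for CPM per kb.

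Samples were grouped by the sex and day in the labels. Counts were fitted with edgeR 4.0.16 in R 4.3.3 (TMM, filterByExpr, robust quasi-likelihood test) on the groups compared, in 13 comparisons, with p-values adjusted over all genes tested. Standard errors are of the log2 fold change. The fits were tested on simulated counts. Ratios were tested by exact two-sided permutation of 4 mice against 4 (scipy 1.17.1). Log2 CPM for profiles used a prior count of 2. Alternatives were DESeq2 size factors, DESeq2 1.42.0, limma 3.58.1 voom with quality weights, other filters, 1 fit over all 8 groups, a replicate block, no mitochondrial genes, and each mouse left out in turn. The genes named are the 9, the 3 nearest profiles of each, and of each of 5 pathway lists at most 4 called genes with the lowest adjusted p. Other genes of these lists are named only to spell out a count or as not tested, after their values were seen. One result of the cation transporter list is not reported here. The 9 genes, the lists and the markers were chosen with earlier results of these data known. The exocrine pancreas markers were not measured. Total counts per library were 16502107 to 35961325, and 3 counts were taken as the floor.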

Additional observations from a re-analysis of the deposited data

Results flagged for a closer look

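Of 88 groups of 4 mice, formed by the 9 genes and the 2 ratios, 5 held a mouse whose gap to the nearest other mouse exceeded Dixon's 95% critical value as a share of the group's range. Chance alone flags about 1 in 20 groups, or 5%. Atp7a was at 6.96 CPM in the male Day 0 mouse 4, where the other 3 were at 1.25 to 1.93 CPM, and at 12.6 CPM in the female Day 0 mouse 4, where the others were at 0.138 to 1.62 CPM. Slc47a1 was at 243 CPM in the library labelled male Day 5 mouse 1, where the others were at 34.7 to 60.8 CPM. Slc31a1 was at 114.8 CPM in the female Day 2 mouse 4, where the others were at 94.3 to 97.7 CPM. Anpep was at 159 CPM in the female Day 3 mouse 4, where the others were at 144 to 145.5 CPM.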

How the results depend on the processing

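The sign check covered 36 log2 fold changes of the 9 genes. It left out many near 0, which change sign most easily, such as Slc31a2 in males at Day 2 (0.02). None of the 36 changed sign under the alternatives that gave a value. Those differences of ratios that changed sign were far from the threshold. No value was given with at least 10 counts in every library for Atp7a in females and Atp7b in males at Day 2 and for Atp7a in females at Day 3, nor by DESeq2 for Atp7a in females on those days. The counts of the 9 genes called moved as follows. With limma voom and quality weights they were 6, 5, 6, 6 and 3 for male Day 2 and Day 3 and female Day 2, Day 3 and Day 5 against Day 0, 3, 6, 8 and 7 for the sexes on the 4 days in order, and 1, 1 and 5 for the interactions, while this fit called 11.2 to 57.1% of all genes. With DESeq2 they were 2 for male Day 2, 1 and 4 for female Day 2 and Day 3, 1 for the sexes at Day 0 and at Day 2, and 2 for the Day 5 interaction. With 1 fit over all groups they were 0 for male Day 3, 2 and 1 for female Day 2 and Day 5, 1 and 4 for the sexes at Day 3 and Day 5, and 4 for the Day 5 interaction. Without a filter they were 1 for male Day 3 and 1 for female Day 3, with at least 10 counts in every library 1 for female Day 2, and with DESeq2 size factors 0 for female Day 3. Counting DEGs only gave 1 and 3 for male Day 3 and Day 5, 0 for female Day 3 and 0 for the sexes at Day 3. The cause of these moves was not tested. Same-numbered mice did not all deviate together in any comparison (correlations from -0.415 to 0.481). Between the sexes at Day 0 mice 1, 3 and 4 did (0.272 to 0.481) and mouse 2 did not (-0.074). The mice were therefore taken to share only a number. With the mouse number as a replicate block, the counts were 0 for male Day 3, 0 for female Day 3 and 1 for the sexes at Day 0 (Slc22a2, adjusted p = 0.024), and the other counts stayed within 1.5 times, although for male Day 5 the block lost Slc31a2 (adjusted p = 0.0531) and gained Anpep (0.0468). Leaving out each mouse in turn gave 0 to 2, 0 to 3 and 1 to 7 genes for male Day 2, Day 3 and Day 5, 0 to 2, 0 to 5 and 0 to 0 for female Day 2, Day 3 and Day 5, 0 to 0, 0 to 1, 3 to 7 and 0 to 5 for the sexes on the 4 days in order, and 0 to 0, 0 to 0 and 0 to 4 for the interactions. The count of ratio comparisons past the adjusted threshold was 0 for both ratios with the deposited FPKM, with a pseudocount of 1 and without any mouse, where 3 against 4 mice cannot go below p = 0.0571 in an exact permutation test. The few counts of Atp7a and Atp7b in Day 0 and male Day 5 libraries limit their precision, and 4 mice a group limit all tests.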
